A study of Homo sapiens with 4 samples.

Results

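The hypoxia-inducible factor (HIF) genes and the genes of its oxygen sensors were examined at the RNA level in HCT116, a human colon carcinoma line, with and without an intact TOP3B gene. The set was named by symbol and has 10 genes, of which 9 were read from the authors' table of 35820 genes. They are the HIF alpha subunits HIF1A, EPAS1 and HIF3A, the beta subunits ARNT and ARNT2, the prolyl hydroxylases EGLN2 and EGLN3, the asparaginyl hydroxylase HIF1AN and the ubiquitin ligase receptor VHL. The RNA level of EGLN1, the third prolyl hydroxylase, was not analysed here. By GENCODE 29, HIF1A and EGLN3 are on chromosome 14, HIF3A and EGLN2 on chromosome 19, ARNT on chromosome 1, EPAS1 on chromosome 2, VHL on chromosome 3, HIF1AN on chromosome 10 and ARNT2 on chromosome 15.

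The TOP3B-KO group held 2 libraries of clone E2-4, in which CRISPR was directed at exon 2 of TOP3B, the gene of a topoisomerase that acts on RNA and DNA. The wild-type (WT) group held 2 libraries of HCT116 cells. Both were grown at the same labelled conditions, in DMEM with serum in a humidified incubator, and no low-oxygen treatment is named in the labels. The KO group is 1 clone, so clone and genotype cannot be told apart, and nothing in the labels tells whether replicates are separate cultures, so p-values measure the spread between these libraries. Estimated counts in genes summed to 10450048 and 16143634 in the KO libraries, against 15141919 and 11750516 in the WT libraries.

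HIF is a pair of an alpha and a beta subunit that binds DNA at hypoxia response elements, whose core is ACGTG or GCGTG. In oxygenated cells the prolyl hydroxylases mark the alpha subunits, VHL recognises the mark and the protein is degraded, while HIF1AN (also called FIH) hydroxylates an asparagine that otherwise contacts the coactivators CREBBP and EP300. Much of this control acts on protein, which RNA counts do not measure. EGLN1 and EGLN3 are themselves HIF target genes, which gives the pathway a feedback loop.

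The sequences before the start sites of 3 members are shown because HIF1A and EPAS1 are the alpha subunits whose ratio lay lower in both KO libraries, and EGLN2 was the member with the higher level in KO. Each is the 250 bases before the first RefSeq start listed (build GRCh38.p14, plus strand), and capitals mark the cores ACGTG and GCGTG on either strand. They lie at chr14:61695263-61695512 for HIF1A, chr2:46297157-46297406 for EPAS1 and chr19:40798941-40799190 for EGLN2.
HIF1A: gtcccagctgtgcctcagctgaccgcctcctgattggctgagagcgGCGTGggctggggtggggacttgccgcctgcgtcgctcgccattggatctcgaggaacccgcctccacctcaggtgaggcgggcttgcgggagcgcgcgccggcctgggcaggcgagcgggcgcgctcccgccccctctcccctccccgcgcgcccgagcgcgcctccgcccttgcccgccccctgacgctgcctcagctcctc
EPAS1: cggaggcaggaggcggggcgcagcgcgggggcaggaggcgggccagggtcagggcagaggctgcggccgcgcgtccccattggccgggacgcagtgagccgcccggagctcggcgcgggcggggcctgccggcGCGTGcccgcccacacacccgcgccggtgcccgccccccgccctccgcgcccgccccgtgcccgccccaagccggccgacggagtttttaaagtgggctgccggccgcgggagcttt
EGLN2: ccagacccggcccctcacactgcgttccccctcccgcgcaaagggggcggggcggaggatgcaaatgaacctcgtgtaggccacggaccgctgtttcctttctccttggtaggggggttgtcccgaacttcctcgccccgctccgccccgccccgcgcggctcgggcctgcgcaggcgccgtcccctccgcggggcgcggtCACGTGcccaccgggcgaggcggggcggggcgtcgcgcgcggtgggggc
HIF1A and EPAS1 each held 1 GCGTG, at 204 and 117 bases before the start. EGLN2 held the palindrome CACGTG, which reads ACGTG on both strands and is also the E-box bound by other bHLH factors. Of the 10 members, 8 were matched in the RefSeq promoters, EGLN1 among them, with 12 start sites. Of their windows 5 held a core, that of EGLN1 included, against 43.2% of the 35116 windows of all genes. The windows listed for EGLN3, ARNT and HIF1AN held neither core.

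None of the HIF subunit or oxygen-sensor transcripts passed the test between KO and WT. EPAS1, which encodes HIF-2 alpha, stood at 0.526 of its WT level in the KO clone, HIF1A, ARNT and EGLN3 were lower by smaller amounts, VHL was close to equal, and EGLN2 was the 1 gene with a higher level. Of the 9 genes, 8 passed the filter on low counts and were tested, and HIF3A did not pass it. edgeR called 0 of the 8 at an adjusted p under 0.05, against 0.00815% of all 12269 tested genes, and DESeq2 called 0 of the 8, against 1.38% of its 13258 genes. At an unadjusted p under 0.05 edgeR gave 1 of the 8, EPAS1, against 11.2% of all tested genes, and DESeq2 gave the same 1, against 8.95%. The log2 fold change (KO over WT) was below 0 in 7 of the 8, against 51.5% of all tested genes, and the median of the 8 was -0.26, against -0.01 over all tested genes. In 5 members the KO libraries were each below the WT pair and in 1 each above it, against a background of 23.5% of tested genes in each direction.

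**Figure D1:**
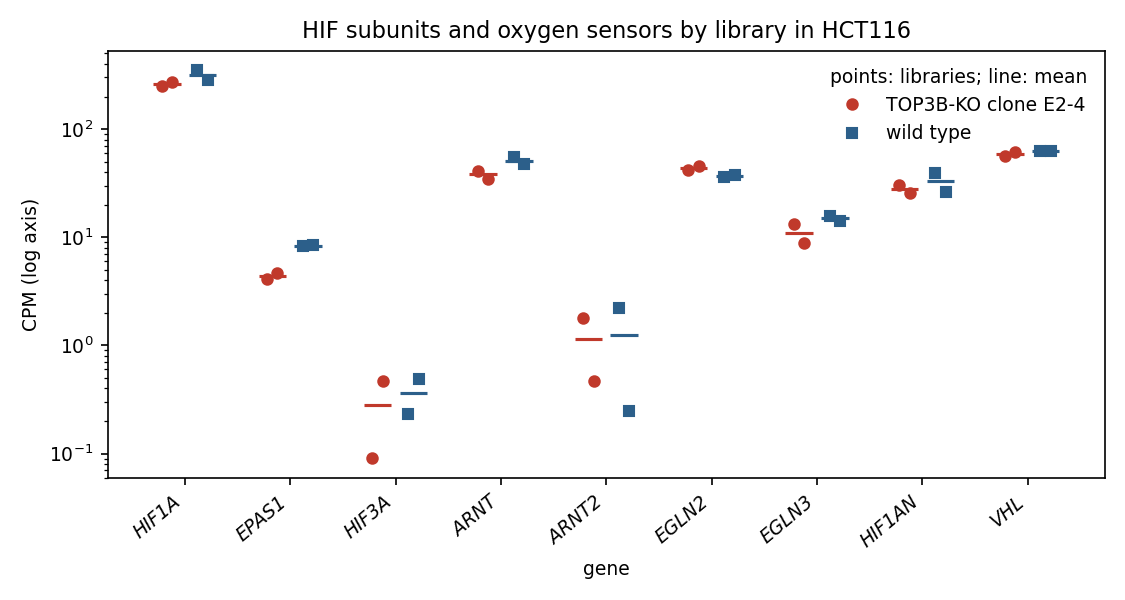
Level of each member in CPM (log axis) in each library, with KO as red circles left of WT as blue squares and a line at the group mean (n = 2 each). EPAS1 shows the widest gap among genes whose 2 groups do not overlap, at 4.16 and 4.64 CPM in KO and 8.32 and 8.43 CPM in WT, while HIF3A and ARNT2 scatter within each group.

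Among the alpha subunits, HIF1A was by far the most abundant. In CPM (counts scaled by library size and TMM factor) its level was 248 and 274 in the KO libraries and 350.4 and 284.3 CPM in the WT libraries. Neither KO library reached the level of a WT library, but WT replicate 2 was closer to KO replicate 2 than to WT replicate 1. The log2 fold change was -0.28 (standard error 0.15, adjusted p = 0.522 by edgeR), with a 95% interval of -0.66 to 0.10. It was -0.12 without WT replicate 1 and -0.41 without WT replicate 2, so its size depends on which WT library is used. With log2 RPKM, which has no TMM factor, it was -0.11 at a pseudocount of 0.5 or 0.1. Its size therefore also depends on the scaling. On those 2 scales the median of all tested genes was 0.064 and 0.11.

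EPAS1 encodes the second alpha subunit, which pairs with ARNT as HIF1A does and has its own set of preferred targets. It had 46 and 79 counts in the KO libraries and 108 and 103 counts in the WT libraries. As levels these were 4.16 and 4.64 CPM in KO and 8.32 and 8.43 CPM in WT. The groups did not overlap, and each pair of replicates lay within 1.12-fold of each other. The group means were 4.40 ± 0.341 CPM in KO and 8.38 ± 0.0798 CPM in WT (SD, n = 2 each). On the log2 scale KO differed from WT by -0.93 (standard error 0.27), with a 95% interval of -1.62 to -0.23, and its edgeR adjusted p was 0.378 over all genes (DESeq2 adjusted p = 0.558). It ranked 593 by p among the 12269 tested genes, so the difference did not pass. Leaving out any 1 library gave log2 fold changes between -1.01 and -0.85.

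HIF3A encodes an alpha subunit with splice forms that can inhibit the others. It had 1 and 8 counts in the KO libraries and 3 and 6 counts in the WT libraries. A level of 3 counts, the floor that a count of 0 allows, corresponds to 0.176 to 0.271 CPM in a single library, and such floors cover counting error only. HIF3A lay at or below that floor in 1 library of each group, so a difference was not detectable at this depth.

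Of the beta subunits, ARNT is the constitutive partner of the alpha subunits and of the aryl hydrocarbon receptor. Its level was 41.4 and 34.9 CPM in the KO libraries and 54.8 and 47.3 CPM in the WT libraries. Both KO libraries were below both WT libraries, with replicates of a group up to 1.19-fold apart. The log2 fold change was -0.42 (standard error 0.17, adjusted p = 0.452 by edgeR), with a 95% interval of -0.85 to 0.0047. ARNT2, a paralog known mainly from neurons, had 20 and 8 counts in the KO libraries and 29 and 3 counts in the WT libraries. Replicate 1 of each group was high and replicate 2 low, the groups overlapped, and the WT libraries were 9.10-fold apart. Its log2 fold change of -0.17 had a 95% interval of -3.07 to 2.73, and leaving out WT replicate 1 gave 2.14 while leaving out KO replicate 1 gave -1.39, so ARNT2 has no direction in these data.

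The 2 prolyl hydroxylases read here lay on different sides of their WT levels. EGLN2 (PHD1) had 42.3 and 45.2 CPM in the KO libraries and 36.1 and 37.7 CPM in the WT libraries, and was higher in both KO libraries than in either WT library. Its log2 fold change was 0.25 (standard error 0.14, adjusted p = 0.533 by edgeR), with a 95% interval of -0.11 to 0.60. The readthrough gene RAB4B-EGLN2, which shares the EGLN2 exons, had at most 0.855% of the EGLN2 counts in any library, although the split of shared reads between such genes is an estimate. EGLN3 (PHD3), a hypoxia-induced hydroxylase, had 13.2 and 8.87 CPM in the KO libraries and 15.8 and 14.3 CPM in the WT libraries. In CPM both KO libraries were lower, but KO replicate 1 lay nearer to the WT libraries than to KO replicate 2. The log2 fold change of EGLN3 was -0.45 (standard error 0.27, adjusted p = 0.552 by edgeR), and leaving out KO replicate 1 gave -0.76, KO replicate 2 -0.19.

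HIF1AN, the asparaginyl hydroxylase, had 30.2 and 25.5 CPM in the KO libraries and 39.5 and 26.4 CPM in the WT libraries. The groups overlapped, with WT replicate 1 above the other 3 libraries, as it was in 30.6% of all tested genes. Its log2 fold change was -0.25 (standard error 0.25, adjusted p = 0.696 by edgeR), and without WT replicate 1 it was 0.08. VHL, the substrate receptor of the ligase, had 56.7 and 60.8 CPM in the KO libraries and 62.4 and 62.2 CPM in the WT libraries. Its log2 fold change was -0.08 (standard error 0.12, adjusted p = 0.793 by edgeR), with a 95% interval of -0.40 to 0.23. That interval runs from 0.757 to 1.17 of the WT level, and a change within it was not detectable here.

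**Figure D2:**
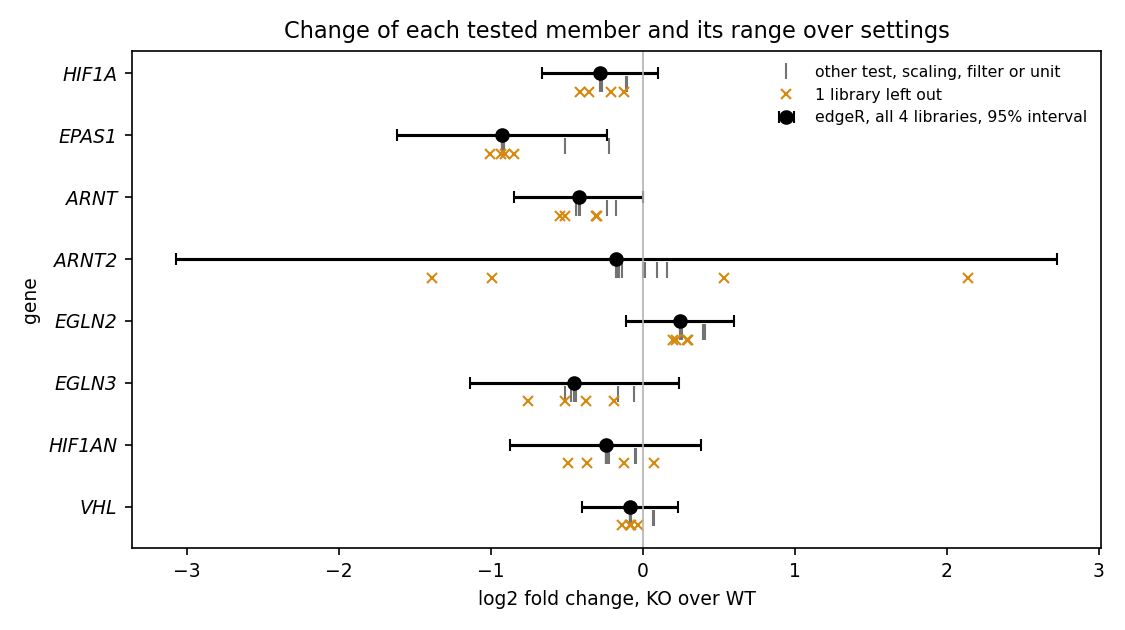
Log2 fold change (KO over WT) of the 8 tested members, with edgeR's value and 95% interval in black, other tests, scalings, filters or units as grey ticks and fits with 1 library left out as orange crosses. EPAS1 is the 1 member whose interval lies wholly below 0 (-1.62 to -0.23), and the crosses of ARNT2 fall on both sides of 0 between -1.39 and 2.14.

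Ratios of 2 members in the same library do not depend on library scaling, and they are given with no test because 2 libraries against 2 cannot reach an exact p below 0.333. EPAS1 counts were 1.68% and 1.69% of HIF1A counts in the KO libraries and 2.38% and 2.97% in the WT libraries, so the groups did not overlap, and 8.70% of tested genes had a ratio to HIF1A that was likewise lower in both KO libraries. HIF3A counts were 0.0364% and 0.171% of HIF1A counts in the KO libraries and 0.0660% and 0.173% in the WT libraries. ARNT2 counts were 4.37% and 1.35% of ARNT counts in the KO libraries and 4.08% and 0.520% in the WT libraries. Both of these ratios overlapped. HIF1A counts were 5.99 and 7.86 times those of ARNT in the KO libraries and 6.39 and 6.02 times in the WT libraries, and these overlapped. The remaining pairs were added after seeing the data. The VHL to EGLN2 ratio was 1.34 in both KO libraries and 1.73 and 1.65 in the WT libraries. The EGLN3 to EGLN2 ratio was 0.312 and 0.196 in the KO libraries and 0.438 and 0.378 in the WT libraries. The HIF1A to EGLN2 ratio was 5.87 and 6.06 in the KO libraries and 9.72 and 7.55 in the WT libraries. These 3 ratios over EGLN2 lay lower in KO without overlap, but so did those of 47.5% of all tested genes. All 3 share the EGLN2 value, which was the higher in both KO libraries, and nothing is read from them. HIF1AN counts were 71.4% and 56.4% of EGLN2 counts in the KO libraries and 109.6% and 70% in the WT libraries, and these overlapped. HIF1A counts were 4.38 and 4.51 times those of VHL in the KO libraries and 5.61 and 4.57 times in the WT libraries, lower in KO without overlap, against 16.6% of tested genes.

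**Figure D3:**
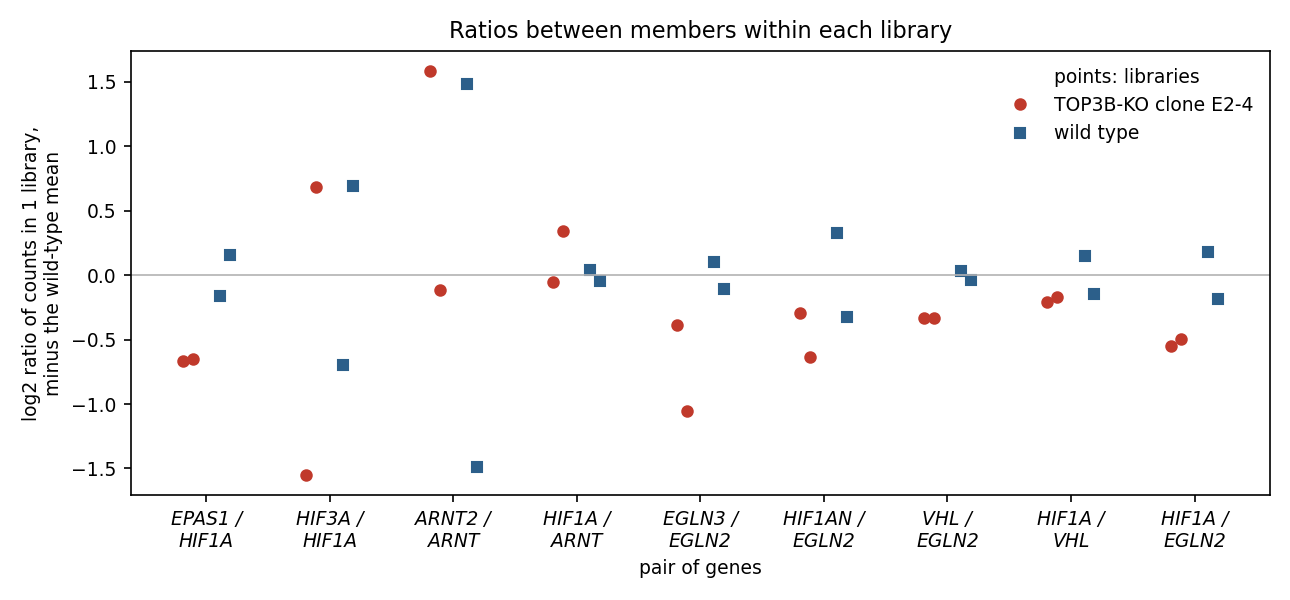
Log2 ratio of the counts of 2 members in the same library, minus the WT mean of that pair, for 9 pairs, with KO as red circles left of WT as blue squares. The EPAS1 to HIF1A ratio lies lower in both KO libraries, by a mean of 0.66 on the log2 scale, and the HIF1A to ARNT ratio overlaps between the groups, as do the widely scattered pairs with HIF3A and ARNT2.

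Between genes, levels were compared per length of the longest principal coding transcript in GENCODE 29. In CPM per kb of transcript, HIF1A led with 66.6 ± 4.69 in KO and 81.0 ± 11.9 in WT (SD, n = 2 each), and VHL was next with 15.7 ± 0.778 in KO and 16.7 ± 0.0495 in WT. EGLN2, ARNT, EGLN3, HIF1AN, EPAS1, ARNT2 and HIF3A followed in that order in both groups. Neighbours that overlapped within a group were VHL with EGLN2 in KO, and ARNT2 with HIF3A in both groups. EPAS1 stood at 0.851 ± 0.0660 in KO and 1.62 ± 0.0156 in WT on that scale. The deposited RPKM gave another order, with EGLN2 first at 13.5 ± 0.608 RPKM in KO and 10.2 ± 1.70 RPKM in WT, and HIF1A next at 9.37 ± 0.633 RPKM in KO and 10.1 ± 0.113 RPKM in WT. These 2 overlapped in WT, as did HIF3A and ARNT2 in both groups. The gene length behind the RPKM, recovered from the values, was 29440 bases for HIF1A and 107154 bases for EGLN3, against transcripts of 3919 and 2709 bases, so RPKM understates members with long introns. HIF1A was above EPAS1 on both scales.

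The tested genes whose pattern over the 4 libraries was most like that of EPAS1, by the root mean square difference of centred log2 CPM, were DIP2B (0.0237), RNF103 (0.0418) and the antisense RNA TMEM254-AS1 (0.0602). DIP2B had 1.90 and 2.17 CPM in the KO libraries and 3.93 and 4.10 CPM in the WT libraries. A difference below 0.1 was found for 34 of the tested genes.

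Genes around the members are given by the same fit on all genes. The list of VHL ubiquitin ligase partners, which also holds the deubiquitinases USP20 and USP33, had a median log2 fold change of -0.14 over 10 tested genes. Of these, 0 passed edgeR or DESeq2. At an unadjusted p under 0.05 edgeR gave 0 higher and 2 lower, against 4.97% and 6.21% of all tested genes. The 2 were ELOB (elongin B), a subunit of the VHL ligase, and the ubiquitin-conjugating enzyme UBE2D1. ELOB had 63.3 and 44.2 CPM in KO and 168.1 and 70.2 CPM in WT. UBE2D1 had 18.8 and 25.0 CPM in KO and 34.5 and 30.3 CPM in WT. ELOB was high in WT replicate 1 alone, with a log2 fold change of -0.39 without that library and -1.64 without WT replicate 2 (edgeR adjusted p = 0.0164). That of UBE2D1 ran from -0.79 to -0.38 with 1 library left out. The cullin CUL2 had a log2 fold change of 0.42 (standard error 0.31, adjusted p = 0.612 by edgeR). It had 24.4 and 25.7 CPM in KO and 13.3 and 24.1 CPM in WT, so the value rests on WT replicate 1, and it was 0.057 without that library and 0.93 without WT replicate 2.

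Factors that act on HIF stability or translation had a median of -0.10 over 17 tested genes, with 0 called by edgeR or DESeq2. By edgeR 1 was higher and 0 lower at an unadjusted p under 0.05, against 4.97% and 6.21% of all tested genes. The 1 was RPTOR, the scaffold of mTORC1, with 32.0 and 41.7 CPM in KO and 21.1 and 20.1 CPM in WT (log2 fold change 0.84 ± 0.19 SE; adjusted p = 0.304 by edgeR and 0.123 by DESeq2). MDM2 and the chaperone HSP90AB1 had log2 fold changes of -0.57 and 0.37, and both rest on WT replicate 1. Without it they were -0.15 and 0.085, and without WT replicate 2 they were -0.88 and 0.73, called at edgeR adjusted p of 0.0356 and 0.0397. HIF cofactors, CREBBP and EP300 among them, had a median of -0.02 over 15 tested genes, with 0 at an unadjusted p under 0.05 and 0 called by either tool. Of these ZNF217, KAT5 and RUVBL1 had the smallest p, with log2 fold changes of 1.57, 0.24 and 0.31, and for ZNF217 the value rests on KO replicate 2 (14.7 CPM, against 2.89 CPM in KO replicate 1). With 1 library left out KAT5 ran from 0.13 to 0.33 and RUVBL1 from 0.17 to 0.49.

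Other bHLH-PAS factors, the family of HIF alpha and ARNT, had a median of 0.17 over 7 tested genes. By edgeR 1 of the 7 was at an unadjusted p under 0.05, against 11.2% of all tested genes. That gene was AHRR, a repressor of the aryl hydrocarbon receptor that also pairs with ARNT. It had 3.61 and 3.35 CPM in KO and 0.848 and 0.983 CPM in WT (log2 fold change 1.92 ± 0.40 SE; adjusted p = 0.274 by edgeR and 0.319 by DESeq2). NPAS2 and BMAL2, factors of the circadian clock, had log2 fold changes of 0.55 and 0.17.

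Other dioxygenases that use oxygen with 2-oxoglutarate, or with a thiol, had a median of -0.06 over 20 tested genes. DESeq2 called 2, both lower, against 0.890% of its genes called lower, and edgeR called 0. They were the histone demethylase KDM3A, with 66.0 and 92.7 CPM in KO and 176.9 and 194.3 CPM in WT (log2 fold change -1.22 ± 0.19 SE; adjusted p = 0.253 by edgeR and 4.95e-05 by DESeq2), and the collagen lysyl hydroxylase PLOD2, with 93.5 and 82.9 CPM in KO and 157.9 and 136.9 CPM in WT (log2 fold change -0.74 ± 0.14 SE; adjusted p = 0.260 by edgeR and 0.0139 by DESeq2). Without WT replicate 2 edgeR called both (adjusted p = 0.0398 for KDM3A and 0.0351 for PLOD2). Both are also known as hypoxia-induced genes. With PLOD1 and KDM4B they made up the 4 lower at an unadjusted p under 0.05, with 0 higher, against 6.21% and 4.97% of all tested genes. KDM3A, KDM4B, P4HA1 and P4HA2 also belong to the HIF target genes given below, so the counts of these lists overlap. Enzymes that make or use 2-oxoglutarate and succinate had a median of 0.04 over 16 tested genes, with 0 called by either tool. At an unadjusted p under 0.05 edgeR gave 1 lower and 2 higher, against 6.21% and 4.97% of all tested genes. The 1 lower was IDH2 (log2 fold change -0.64, edgeR adjusted p = 0.296). The 2 higher were SUCLG2 and SUCLG1 (0.88 and 0.72, edgeR adjusted p = 0.438 and 0.443). The log2 fold change of SUCLG1 was 0.47 without WT replicate 1.

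The target genes that HIF is known to induce are given beside its subunits and sensors. Beside EGLN3, which is a member, 36 target genes were tested, with a median of -0.72. Of these, 17 were lower and 1 was higher (CA12) at an unadjusted p under 0.05 by edgeR, against 6.21% and 4.97% of all tested genes. At an adjusted p under 0.05 edgeR called 0, and DESeq2 called 8, all lower, against 0.890% of its genes called lower. The 8 were CA9, NDRG1, SLC2A1, KDM3A, BNIP3L, ALDOC, DDIT4 and FAM162A. CA9, a carbonic anhydrase, had 0 counts in both KO libraries and 7.01 and 5.16 CPM in the WT libraries, at least 57.0-fold lower with the KO group set at a floor of 3 counts in all (edgeR adjusted p = 0.227; DESeq2 adjusted p = 2.91e-05). The median of the 36 was -0.52 without WT replicate 1 and -0.78 without WT replicate 2. It was -0.69 without KO replicate 1 and -0.67 without KO replicate 2. With log2(RPKM + 0.5) the median was -0.35, on a scale that understates low genes. The lower level of this list was known from earlier results on these libraries and is no independent evidence. No test of the difference between the members and their targets was made.

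**Figure D4:**
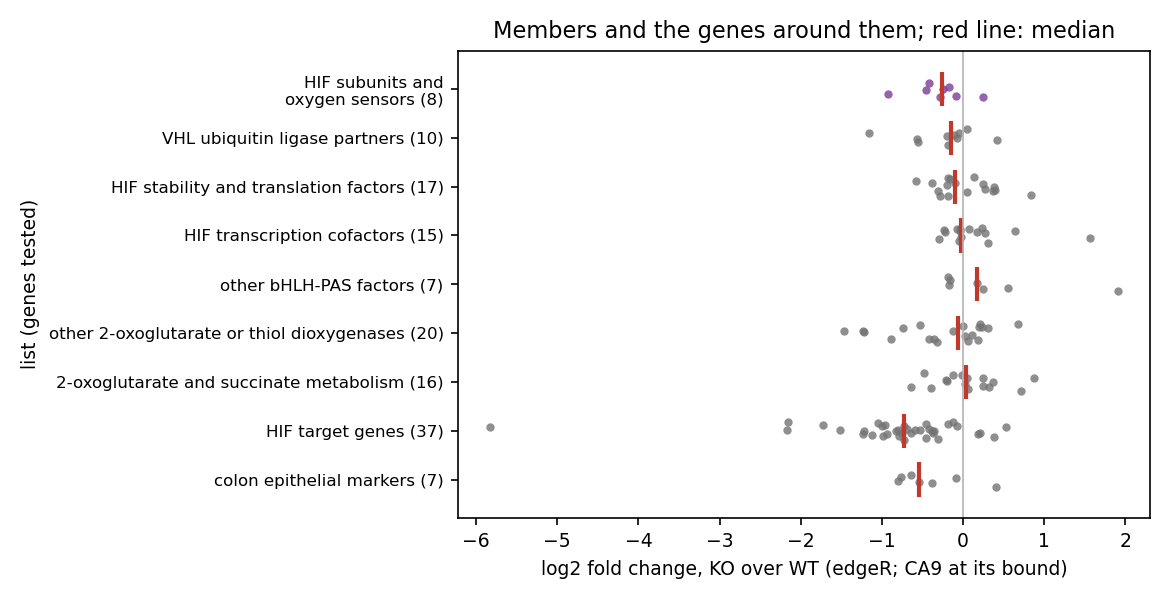
Log2 fold change (KO over WT) of each tested gene, by list, with a red line at the median and the number of tested genes in brackets. HIF target genes (37 with EGLN3) have a median of -0.72, the colon epithelial markers -0.54 and the 8 members -0.26, while the other lists drawn lie between -0.14 and 0.17; CA9 is drawn at its bound, and lists with under 5 tested genes are left out.

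Checks of the samples bear on these values. TOP3B had 43.9 and 54.7 CPM in the KO libraries and 57.1 and 66.5 CPM in the WT libraries (edgeR adjusted p = 0.522), and a small change in exon 2 can leave the transcript, so the TOP3B level says nothing on whether the gene was cut. Of the colon epithelial markers, EPCAM, CDH1, KRT8, KRT18 and KRT19 were detected in every library, while KRT20 and GPA33 were at 0 counts in all 4. Their summed level was 1531 and 1453 CPM in KO and 2591 and 2126 CPM in WT. Most of that sum was KRT19, with 1206 and 1083 CPM in KO and 2243 and 1744 CPM in WT. DESeq2 called 1 of these markers, KRT19, lower (adjusted p = 0.00298), against 0.890% of its genes called lower. Of the 7 tested markers, 6 had a log2 fold change below 0, against 51.5% of all tested genes. KRT18 was the 1 above 0 (0.41). At an unadjusted p under 0.05 edgeR gave 2 lower, KRT19 and CDH1, and 0 higher, against 6.21% and 4.97% of all tested genes. Of 13 markers of leukocytes, endothelium, fibroblasts, hepatocytes and erythroid cells, 6 were at 0 counts in every library, PTPRC, CD3E, VWF, COL1A2 and COL3A1 among them. Their summed level was 3.34 and 2.76 CPM in KO and 4.55 and 3.28 CPM in WT. Their part in the results was not tested. In bulk RNA, fewer cells of a kind and less RNA per cell cannot be told apart.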

How the data were processed

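RNA was measured in 4 libraries of HCT116, 2 of TOP3B-KO clone E2-4 and 2 of WT. Per the labels' protocols, ribosomal RNA was removed and stranded, paired libraries were sequenced. The authors deposited rounded estimated counts per gene, and RPKM for the same 4 libraries. Per the submitters' processing notes, Salmon 1.10.1 was used with build hg19. Not given in the sources used here are the annotation, how transcripts were summed to genes and whether strand was used. Genes that overlap others, such as HIF1A and EGLN3, are therefore uncertain.

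The quasi-likelihood test of edgeR 4.0.16, run in R 4.3.3 beside limma 3.58.1, with TMM factors and filterByExpr was fitted to all genes on genotype alone. P-values were adjusted by Benjamini-Hochberg over 12269 genes, with a threshold of 0.05. The standard error is the log2 fold change divided by the square root of F. CPM are counts over library size times TMM factor (0.858 for WT replicate 1, 1.04 to 1.06 in the others). DESeq2 1.42.0, limma-voom, other scalings and filters, log2 RPKM with pseudocounts of 0.5 and 0.1, a replicate block and leaving out each library were alternatives. The scripts were tested on simulated data.

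Members and lists were chosen with earlier results of these data known. All members are named. Of each list, the genes with an edgeR or DESeq2 adjusted p under 0.05 are named, otherwise the 3 of smallest edgeR p; PLOD1, KDM4B and CA12 were named after their values were seen. Of 8 planned ratios, 4 with EGLN1 were not computed, and pairs with EGLN2 or VHL were added after seeing the data. Of the list of antisense and readthrough neighbours, 4 of 9 were in the table and 2 were tested, RAB4B (log2 fold change -0.21) and ARNT2-DT (-1.24), with edgeR adjusted p of 0.812 and 0.478. Promoter sequences are from RefSeq.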

Additional observations from a re-analysis of the deposited data

How the results depend on the processing

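No member passed at an adjusted p under 0.05 in any of the 12 alternatives. HIF1A, EPAS1, ARNT and EGLN3 kept a log2 fold change below 0 and EGLN2 one above 0 in all of them. EPAS1 ran from -1.01 to -0.22, the smallest with log2(RPKM + 0.5), whose pseudocount shrinks low genes by construction. HIF1A ran from -0.41 to -0.11, the smallest also with log2(RPKM + 0.5). EGLN2 ran from 0.20 to 0.41, the largest with log2(RPKM + 0.1). Members at an unadjusted p under 0.05, 1 in the main test, numbered 2 with limma-voom and with the replicate block (EPAS1 and ARNT), 0 with log2(RPKM + 0.5), and 0 to 2 with 1 library left out. Unscaled RPKM with a pseudocount of 0.1 moved the median of all genes by 0.13. VHL was above 0 there (0.076, and 0.070 with a pseudocount of 0.5) but below the median of all genes with 0.1 (0.11). ARNT2 turned to 0.094 with limma-voom, 0.16 with the replicate block and 0.0023 and 0.012 with RPKM. With 1 library left out, it ran from -1.39 to 2.14 (above 0 without WT replicate 1, and 0.53 without KO replicate 2), and HIF1AN from -0.50 to 0.076 (above 0 without WT replicate 1). Of list genes, CD68 then ran from -0.96 to 0.12, COL1A1 from -1.004 to 0.046, RAB4B from -0.48 to 0.13, and ZNF217 from -0.045 to 2.30.

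Genes called over the whole table, 1 in the main test, numbered 183 with DESeq2, 34 with no filter on low counts, 0 and 3 with RPKM (pseudocounts 0.5 and 0.1), and 0 to 575 with 1 library left out (575 without WT replicate 2). Pathway list genes called, 0 in the main test, numbered 9 with DESeq2, 4 with no filter, 1 with log2(RPKM + 0.1) and 0 to 16 with 1 library left out. The cause was not tested. With the replicate block 1 gene was called; deviations of same-numbered libraries correlated at 0.053 across 12269 genes, and with 2 pairs the numbers are not taken to pair the samples. Depth limits HIF3A and ARNT2, with as few as 1 and 3 counts in a library.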
